A study of Mus musculus with 24 samples.

Results

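The transcriptional response to the tumour was compared between the 2 short-lived recruited myeloid populations of the mouse colon, neutrophils and Ly6Chi monocytes. For each gene the tumour effect was the mean log2 RPKM (read density scaled for gene length and library size) in tumour minus that in lamina propria (LP), and the quantity examined was the tumour effect of neutrophils minus that of monocytes. A positive difference of effects means that the transcript rose more, or fell less, in neutrophils. The 12 libraries of the 4 groups LP_Ne, Tu_Ne, LP_Mo and Tu_Mo entered, 3 a group, of the 24 libraries of the series, and 12878 of the 17301 genes in the table were tested.

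The LP cells (LP_Ne and LP_Mo) came from C57BL/6J mice and are called healthy in the labels. The tumour cells (Tu_Ne and Tu_Mo) came from colon adenomas of Apc Min/+ mice, which carry 1 truncated copy of the Apc tumour suppressor, after dextran sodium sulphate had been given to speed adenoma growth. Wild-type control mice also received dextran sodium sulphate in the study, and whether the LP donors of these libraries did is not settled by the sources used here. Neutrophils were sorted as Ly6Ghi F4/80- CD11b+ cells and monocytes as Ly6Chi MHCII- F4/80int CD11b+ cells. Each library held the cells of several pooled mice. Neutrophil and monocyte libraries with the same donor numeral within a tissue were taken to come from the same pool, which the labels do not state outright. LP tissue was treated with EDTA before digestion, and the tumour preparation is described without it and with another gradient. Genotype, tissue, preparation and the dextran sodium sulphate treatment or its dose therefore cannot be told apart in any tumour effect. The difference of effects sets the 2 cell types against each other within each preparation. A step of the preparation that acts unequally on the 2 cell types would remain in it, and this was not tested. Library values below are log2 RPKM and are given in the order of pools III, IV and V for LP and I, II and V for tumour. LP pool V and tumour pool V are different mice.

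Neutrophils are granulocytes that leave the bone marrow fully formed, with granule proteins already made, and live for a short time in tissue. The receptor Cxcr4 holds them in the marrow and draws aged cells back to it, whereas Cxcr2 favours their release. Ly6Chi monocytes leave the marrow through Ccr2 and can still differentiate in tissue into macrophages. Both cell types respond to microbial and inflammatory signals through NF-kB, a family of transcription factors (Rel, Rela, Nfkb1 and others) that induces its own inhibitors, and through immediate-early genes such as Fos and Zfp36, whose short-lived transcripts need no new protein to be made.

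The libraries held 15.9 to 40.2 M reads over genes. Ly6g, the surface marker of neutrophils, was 5.41 to 8.70 in the 6 neutrophil libraries and -3.41 to 0.40 in the 6 monocyte libraries. Ccr2 was 1.16 to 2.60 in neutrophils and 6.13 to 6.92 in monocytes. The 15 neutrophil markers together were higher in neutrophils (summed RPKM 19251 to 50011) than in monocytes (477 to 940). The summed RPKM of the 13 monocyte markers was also higher in neutrophils (9924 to 12068 in LP, 24832 to 28120 in tumour). For monocytes this sum was 5375 to 7245 (LP) and 10310 to 12659 (tumour). Such a sum follows its most abundant members and does not mean that each marker was higher in neutrophils. Ccr2, as given above, was lower in them. Which members carried the sum was not tested. None of the 15 neutrophil, 13 monocyte or 14 macrophage markers passed the test for the difference of effects by limma (0, 1 and 1 at an unadjusted p under 0.05, and none with limma voom). Transcripts of squamous keratinocytes stood out in the LP monocyte libraries III and V. The RPKM of 15 such genes (a list added after their values were seen) summed to 3347 and 1506 there, to 21.7 in LP monocyte library IV and to 15.7 to 42.1 in the other 9 libraries. B and plasma cell markers were higher in LP than in tumour in both cell types (summed RPKM 359 to 1302 against 0.663 to 20.1 in neutrophils, 157 to 576 against 0.195 to 4.69 in monocytes). Epithelial markers were higher in tumour in neutrophils (193 to 416 against 27.7 to 102), and in monocytes the ranges overlapped (147 to 444 against 26.4 to 214). In bulk samples, fewer cells of a type and less RNA per cell cannot be told apart.

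The deposited values were scaled to library sizes that were 0.466 to 0.483 of the summed reads in Tu_Ne, 0.630 to 0.682 in LP_Ne, 0.981 to 1.08 in Tu_Mo and 1.10 to 1.21 in LP_Mo. On this scale the median difference of effects over all genes was -0.12, with the summed reads as library size it was -0.38, and with each library centred on its median it was 0.04. Differences below are tested against 0 on the deposited scale and are to be read beside these medians. The number of higher against lower genes depends on the scale.

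The 2 cell types differed in their tumour effect for 1173 of 12878 genes (9.11% of those tested) at a Benjamini-Hochberg adjusted p under 0.05 by limma over all genes. Of these, 465 (3.61%) were higher in neutrophils and 708 (5.5%) lower. With only the 12 neutrophil and monocyte libraries in the fit 831 genes differed (335 higher, 496 lower). With the summed reads as library size 270 were higher and 1531 lower, and with median-centred libraries 601 were higher and 513 lower. Without the LP monocyte libraries III and V, which carried keratinocyte transcripts, 521 differed (185 higher, 336 lower), and 429 of them were among the 1173. The tumour effect in neutrophils passed the test for 32.2% of genes (1690 up, 2452 down), against 9.29% in monocytes (626 up, 571 down). These 4142 and 1197 genes became 2625 and 1869 with array weights and 2768 and 1764 with voom. Among the 465 higher genes 353 had risen in neutrophils with no call in monocytes, and 560 of the 708 lower genes had fallen in neutrophils with no call in monocytes. A change was called in monocytes alone for 48 of the higher genes, which fell there, and for 60 of the lower genes, which rose there. In 36 higher and 28 lower genes both cell types moved the same way by unequal amounts, and in 48 genes neither effect passed alone. Opposite effects, with both called, were found for 40 genes (0.311%).

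**Figure D1:**
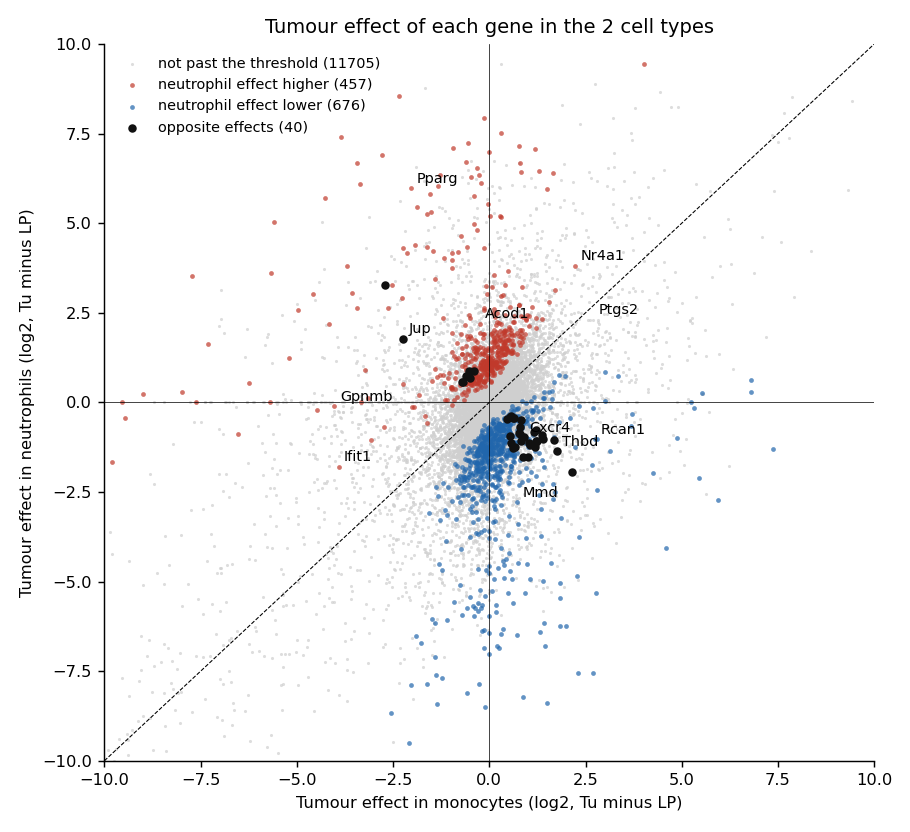
Tumour effect of each of 12878 genes in monocytes (x axis) and in neutrophils (y axis), both as log2 RPKM in tumour minus LP. Red and blue points are the genes whose effects differed (neutrophils higher or lower), black points are the 40 genes with opposite effects, and the dashed line marks equal effects. The axes end at 10, which leaves 60 genes outside.

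Opposite effects ran mostly 1 way. In 32 genes (0.248% of those tested) the transcript fell in tumour neutrophils and rose in tumour monocytes, and in 8 (0.0621%) it rose in neutrophils and fell in monocytes. The 32 include surface proteins and receptors (Thbd, Cd83, Ptger2, Cxcr4) and enzymes of lipid and energy metabolism (Pla2g15, Pfkfb3, Sdhd). All 3 tests, for the difference and for each effect, held for 4 of the 40 genes in each of the 26 alternatives that give both effects. The count was 22 without tumour monocyte library I, 24 without tumour monocyte library II, and 14 without the LP monocyte libraries III and V.

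Pla2g15, a lysosomal phospholipase, showed the reversal most clearly. Its log2 RPKM was 4.87, 4.42 and 4.57 in LP neutrophils and 3.66, 3.61 and 3.46 in tumour neutrophils, and 3.64, 3.92 and 3.65 in LP monocytes and 5.08, 5.44 and 5.70 in tumour monocytes. LP and tumour libraries did not overlap in either cell type, and in tumour the monocytes lay above the neutrophils, where in LP they had lain below. The tumour effect was -1.04 (SE 0.17) in neutrophils and 1.67 (SE 0.17) in monocytes, a difference of -2.72 (SE 0.24, adjusted p = 5.7e-06). All 3 tests held in the 26 alternatives.

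Ptger2 encodes EP2, a receptor through which prostaglandin E2 raises cAMP. It fell in neutrophils from 5.07, 4.74 and 4.86 to 3.74, 3.91 and 3.98 and rose in monocytes from 2.23, 2.82 and 2.96 to 4.53, 3.89 and 3.74. The groups of LP and tumour did not overlap, and the level in tumour neutrophils and in tumour monocytes ended in the same range. The effects were -1.01 and 1.38, and their difference was -2.39 (SE 0.31, adjusted p = 0.00012). The transcript of the enzyme that starts prostaglandin synthesis, Ptgs2, did not share this pattern. It rose in both, by 2.305 in neutrophils and 2.71 in monocytes, and the difference of -0.40 (SE 0.31, adjusted p = 0.465) did not pass the test.

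Pfkfb3, the kinase that makes the activator of phosphofructokinase and so speeds glycolysis, went from 8.05, 8.42 and 7.92 to 7.06, 7.30 and 7.34 in neutrophils. In monocytes it went from 4.99, 5.36 and 4.99 to 6.33, 6.17 and 6.98. Neither pair of groups overlapped, and the difference of effects was -2.27 (SE 0.26, adjusted p = 4.3e-05). Pla2g15, Ptger2 and Pfkfb3 were opposite in each of the 26 alternatives.

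Cd83, a surface glycoprotein of activated antigen-presenting cells, was 5.68, 5.76 and 6.41 in LP neutrophils and 4.29, 4.16 and 4.83 in tumour neutrophils. In monocytes it was 7.45, 7.21 and 7.74 in LP and 8.45, 8.47 and 8.47 in tumour. The gap between the cell types thus widened from the LP to the tumour libraries, with a difference of effects of -2.52 (SE 0.35, adjusted p = 0.00022). The reversal was lost without LP monocyte library IV and without the LP monocyte libraries III and V, where the difference itself stayed called.

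Thbd, thrombomodulin, the endothelial and monocyte cofactor that turns thrombin towards protein C, was at like levels in LP neutrophils (4.97, 4.83 and 5.63) and LP monocytes (4.91, 5.19 and 4.87). In tumour it was 3.69, 3.83 and 3.84 in neutrophils and 7.26, 6.71 and 6.27 in monocytes, so that the 2 groups moved apart in both directions. The difference was -3.11 (SE 0.58, adjusted p = 0.0023). The call of a fall in neutrophils or of a rise in monocytes was lost without LP neutrophil library V, without tumour monocyte library I, without the LP monocyte libraries III and V, and with quantile normalization, array weights or voom.

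Cxcr4, the marrow-retention receptor, fell in neutrophils from 7.54, 7.15 and 7.51 to 5.93, 6.63 and 6.71 and rose in monocytes from 3.82, 4.16 and 3.98 to 4.61, 5.19 and 4.83. It stayed higher in neutrophils in both tissues, with no overlap. The difference of effects was -1.86 (SE 0.33, adjusted p = 0.00147). The rise in monocytes did not pass without LP monocyte library III, LP monocyte library V or tumour monocyte library II, or with summed reads as library size. The reversal was also lost without the LP monocyte libraries III and V together. In that fit only LP monocyte library IV remained in its group, and the difference of effects of Cxcr4 was -1.69. Cxcr2, its counterpart in release, was 10.43, 10.64 and 10.63 in LP neutrophils and 9.86, 10.14 and 10.08 in tumour neutrophils, with a difference of effects of -0.08 (SE 1.69, adjusted p = 0.987) that did not pass.

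Phactr2, a regulator of protein phosphatase 1 and actin, and Nudt18, a nucleotide-sanitising hydrolase, also fell in neutrophils and rose in monocytes. Phactr2 changed by -1.52 in neutrophils and 0.87 in monocytes, and Nudt18 by -1.19 and 1.05. Their differences of effects were -2.39 (SE 0.33, adjusted p = 0.0002) and -2.24 (SE 0.34, adjusted p = 0.0004). Both lost the reversal without the LP monocyte libraries III and V, and Phactr2 also without LP monocyte library V, tumour monocyte library II or tumour monocyte library V, with summed reads and in the fit of 12 libraries. Among the others, Sdhd, a membrane anchor of succinate dehydrogenase, had small effects of -0.37 and 0.57, and its neutrophil libraries of LP and tumour overlapped (7.26, 7.08 and 6.85 against 6.47, 6.85 and 6.75).

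Of the 8 genes that rose in neutrophils and fell in monocytes, 5 met the rule for named genes. Sar1a, a small GTPase of vesicle export from the endoplasmic reticulum, was 5.65, 5.41 and 5.29 in LP neutrophils and 6.47, 6.27 and 6.25 in tumour neutrophils. In monocytes it was 6.36, 6.34 and 6.28 in LP and 5.999, 5.74 and 6.01 in tumour, so that the order of the cell types reversed between tissues. The difference was 1.29 (SE 0.16, adjusted p = 9.4e-05), with effects of 0.88 and -0.41. Clec4a2, an inhibitory C-type lectin receptor of myeloid cells, was 4.27, 4.65 and 4.37 in LP and 5.09, 5.06 and 4.81 in tumour for neutrophils, and 3.76, 4.32 and 4.25 in LP and 3.38, 3.47 and 3.46 in tumour for monocytes, a difference of 1.23 (SE 0.25, adjusted p = 0.00471). Med13l, a subunit of the Mediator complex, and Supt20, a subunit of the SAGA coactivator, had differences of 1.40 (SE 0.23, adjusted p = 0.00107) and 1.19 (SE 0.22, adjusted p = 0.00214). Both groups were separate in each cell type for these 4 genes, but the monocyte effect was small (from -0.67 in Clec4a2 to -0.41 in Sar1a). All 3 tests held together in 18 of 26 alternatives for Sar1a, 12 for Clec4a2, 11 for Supt20 and 8 for Med13l. With median-centred libraries none of the 4 was called as opposite.

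The fifth, Jup, encodes plakoglobin, a protein of desmosomes and adherens junctions. It rose in neutrophils from 0.88, 0.20 and 1.09 to 2.90, 1.96 and 2.63, with no overlap. Epithelial markers were higher with Jup in tumour neutrophils (summed RPKM 27.7 to 102 in LP, 193 to 416 in tumour), and their part in this was not tested. In monocytes Jup was 5.37, 2.32 and 4.74 in LP and 1.15, 2.32 and 2.22 in tumour, and its LP values were high in the 2 libraries with keratinocyte transcripts. The difference of effects was 4.02 (SE 0.78, adjusted p = 0.00294), and without those 2 libraries it was 2.20 (adjusted p = 0.0717).

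**Figure D2:**
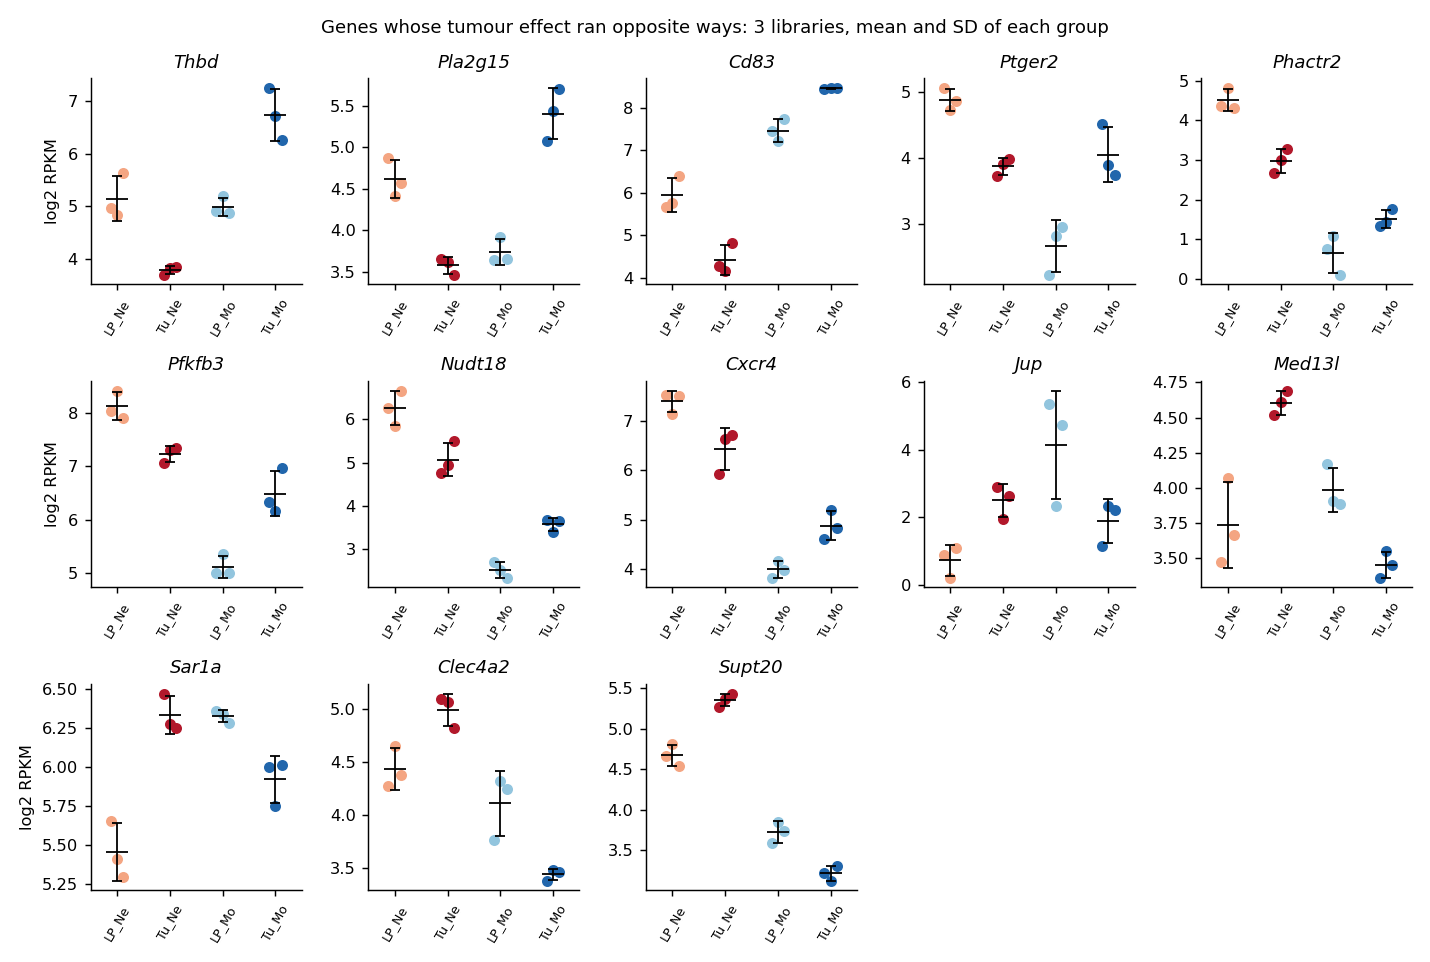
Log2 RPKM of 13 genes whose tumour effect ran opposite ways, in the 3 libraries of each group (points) with the group mean and SD (bars). The 8 genes from Thbd to Cxcr4 fell in neutrophils and rose in monocytes, and the 5 from Jup to Supt20 did the reverse, with LP monocyte Jup spread from 2.32 to 5.37.

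The largest differences in favour of neutrophils included several squamous epithelial transcripts. Among genes that met the rule for named genes Lypd3 and Krt17 came first, with fitted differences of 16.19 and 11.26, followed by Hspb1 (4.12) and Jup. Lypd3 was listed with 1654, 87 and 7259 reads in LP monocytes, 0 in the tumour monocyte and LP neutrophil libraries, and 0, 6 and 9 reads in tumour neutrophils. A fold against a group at 0 reads depends on the count added before the logarithm. With every library set to at least 3 reads the difference was 10.02 for Lypd3 and 8.61 for Krt17. Krt17 was 6.32, 0.40 and 4.78 in LP monocytes and Hspb1 was 4.16, 0.75 and 3.80, again high in the 2 libraries with keratinocyte transcripts. Without these 2 libraries the adjusted p was 0.303 for Krt17 and 0.35 for Hspb1. With voom none of Lypd3, Krt17 and Hspb1 was called (adjusted p = 0.289, 0.236 and 0.323), and 49.9% of the 51-base stretches of Hspb1 also occur in another gene. Hspb1 also lost its call without LP monocyte library III alone, V alone or tumour monocyte library I (adjusted p up to 0.0533), and Krt17 kept it with 5 of 12 libraries left out in turn (adjusted p up to 0.0773). In neutrophils Krt17 was -4.07, -7.45 and -7.45 in LP and 1.12, -0.07 and 2.21 in tumour.

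Anxa1, annexin A1, a phospholipid-binding protein that limits neutrophil recruitment, rose in tumour neutrophils from 8.17, 8.06 and 7.36 to 10.42, 10.13 and 10.34. In monocytes it was 9.04, 6.48 and 8.25 in LP and 7.53, 7.12 and 7.53 in tumour, with the 2 highest LP values again in libraries III and V. The difference of effects was 2.97 (SE 0.58, adjusted p = 0.00339), and 1.52 without those 2 libraries (adjusted p = 0.0583). The rise in neutrophils alone was 2.43 (SE 0.41).

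Gpnmb, a glycoprotein of lipid-laden and tissue macrophages, differed through monocytes. It was 5.12, 5.59 and 4.82 in LP monocytes and 1.66, 1.64 and 0.15 in tumour monocytes, where LP neutrophils had 2.58, 2.82 and 2.18 and tumour neutrophils 2.76, 2.34 and 2.17. The effect of -4.03 in monocytes against -0.10 in neutrophils gave a difference of 3.92 (SE 0.52, adjusted p = 0.00013), which held in each of the 27 alternatives. Pparg, a nuclear receptor of lipid metabolism, went the other way round. It was -3.49, -7.81 and -4.28 in LP neutrophils and 1.28, 0.45 and 0.60 in tumour neutrophils, all 3 above. In monocytes it was 1.51, 0.59 and 1.30 in LP and -3.25, 0.88 and -0.35 in tumour, which overlap. LP neutrophils held 4, 0 and 2 reads, so that the fitted difference of 8.01 rests on few reads, and with a floor of 3 reads it was 6.598.

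Acod1 makes itaconate in activated myeloid cells. It was 12.17, 11.66 and 11.76 in LP neutrophils and 14.00, 14.02 and 14.15 in tumour neutrophils, and 8.22, 8.19 and 7.76 in LP and 8.53, 7.31 and 7.58 in tumour for monocytes. Neutrophil levels thus exceeded those of monocytes in both tissues and rose, by 2.19, where monocytes showed -0.25 with overlapping groups. The difference was 2.44 (SE 0.32, adjusted p = 0.00012) and held in each of the 27 alternatives. Slc35d2, a nucleotide-sugar transporter, and Mov10, an RNA helicase, had differences of 2.84 (SE 0.70, adjusted p = 0.0142) and 2.90 (SE 0.74, adjusted p = 0.018), each from a rise in neutrophils of 2.34 and 1.93. Without the LP monocyte libraries III and V their adjusted p were 0.0551 and 0.0509.

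On the lower side, Mmd, a membrane protein of the progestin and adipoQ receptor family, fell from 3.70, 3.44 and 3.53 to 1.23, 0.59 and 0.49 in neutrophils and was 2.55, 2.99 and 3.07 in LP and 3.65, 4.004 and 3.12 in tumour for monocytes. The difference was -3.51 (SE 0.38, adjusted p = 1.8e-05), although the monocyte effect of 0.72 did not pass the test. Rcan1, an inhibitor of calcineurin, differed through monocytes, where it rose from 2.18, 3.73 and 3.51 to 5.84, 5.48 and 6.32. Its neutrophil libraries overlapped (3.29, 2.45 and 3.16 against 1.41, 2.72 and 1.69), and the difference was -3.77 (SE 0.57, adjusted p = 0.0004). Both held in each of the 27 alternatives. Kif1a, a kinesin motor, Mgat2, a Golgi N-glycan enzyme, and Rcl1, a protein of ribosomal RNA processing, fell in neutrophils, with effects of -3.67, -3.63 and -3.56 (differences -3.39, -3.42 and -3.42), with monocyte effects of -0.29, -0.21 and -0.14 that did not pass.

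Car13, a cytosolic carbonic anhydrase, and Tlr9, the endosomal receptor of unmethylated DNA, were near 0 in tumour neutrophils. Car13 had 56, 86 and 228 reads in LP neutrophils and 0, 0 and 2 in tumour neutrophils, and Tlr9 had 170, 99 and 206 and 0, 4 and 0. In monocytes Tlr9 was 3.61, 3.499 and 3.65 in LP and 1.69, 1.03 and 1.93 in tumour, with no overlap. That effect of -2.04 (SE 1.03) did not pass the test. The SE rests on a spread estimated over all groups. The SD was 3.36 in tumour neutrophils, against 0.08 in LP and 0.47 in tumour monocytes. The fitted differences of -6.23 and -5.84 became -3.58 and -3.37 with a floor of 3 reads a library. With log2(RPKM + 1) the Car13 difference did not pass (adjusted p = 0.431), and that of Tlr9 was 0.06, with the opposite sign (adjusted p = 0.962). Tlr9 was called in 21 of 27 alternatives, and not with log2(RPKM + 0.1), quantile normalization, voom (adjusted p = 0.149), the fit of 12 libraries or without the LP monocyte libraries III and V (adjusted p = 0.0994). B and plasma cell and dendritic cell markers were lower with Tlr9 in tumour neutrophils (dendritic cell markers from a summed RPKM of 93.4 to 187 in LP to 2.82 to 21.0 in tumour), and their part in this result was not tested.

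Gene lists placed these genes among pathways. Each list below was chosen with earlier results of these data known, and counts are read against the share of all genes called, 3.61% higher and 5.5% lower. Tnf and NF-kB genes and immediate-early genes had the most members higher in neutrophils.

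**Figure D3:**
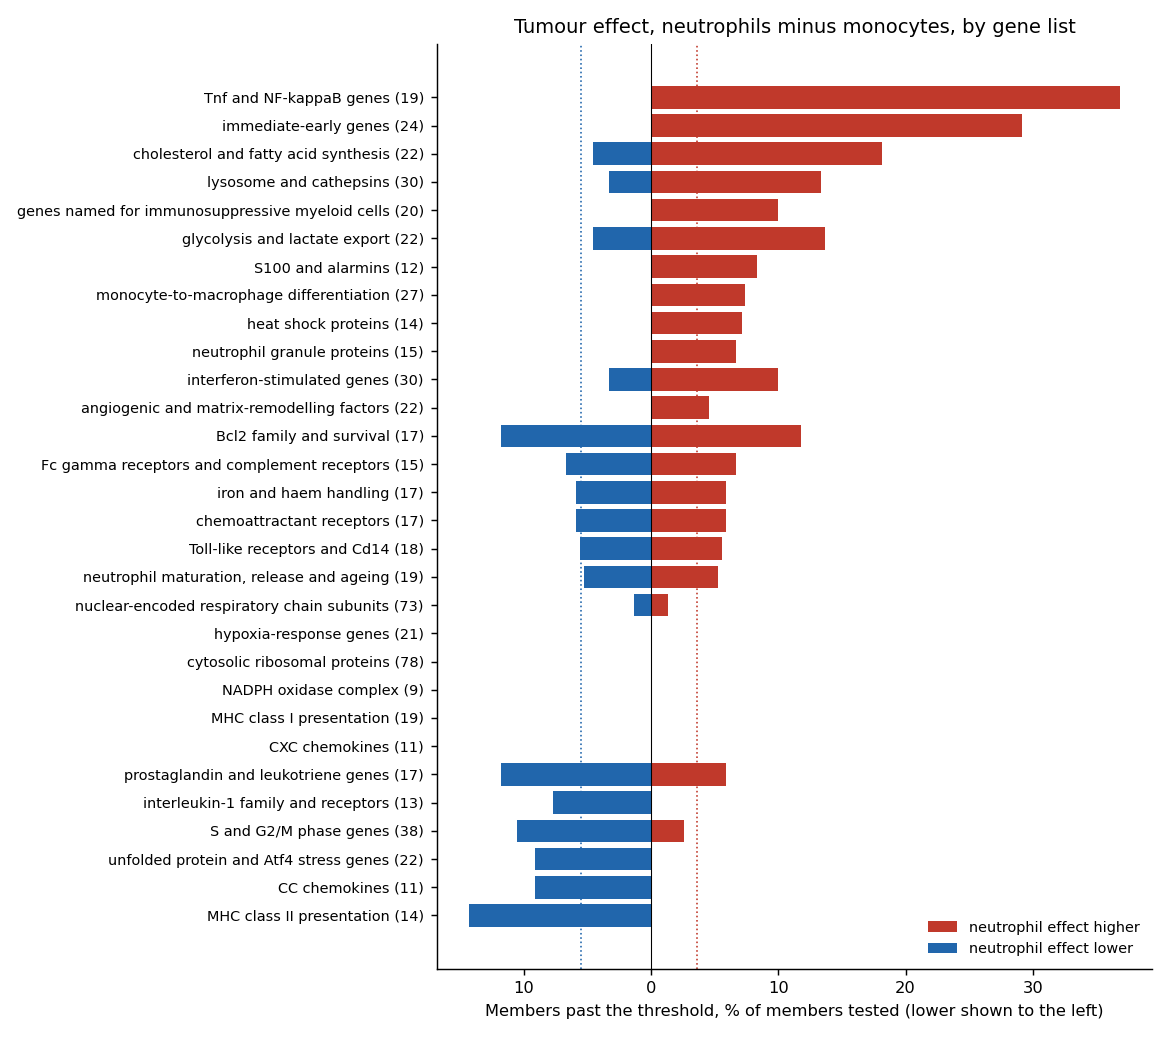
Share of each of 30 gene lists whose members had a higher (red, to the right) or lower (blue, to the left) tumour effect in neutrophils, as a percent of the members tested (number in brackets). Dotted lines mark the share of all genes, 3.61% higher and 5.5% lower. The Tnf and NF-kB list reaches 36.8% higher with none lower.

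Of 19 Tnf and NF-kB genes, 7 had a higher tumour effect in neutrophils and none a lower one (0 lower also at an unadjusted p under 0.05 and with voom), with a list median of 0.27 beside -0.12 for all genes. They were Nfkbid, Nfkbie and Nfkbiz, which encode nuclear and cytosolic IkB proteins that regulate NF-kB, Tnfaip3, the ubiquitin-editing enzyme A20 that ends NF-kB signalling, Rel, an NF-kB subunit, Birc3, a survival protein of the Tnf receptor complex, and the cytokine Tnf. In neutrophils 10 of the 19 rose and in monocytes 3 did, where 13.1% of all genes rose in neutrophils and 4.86% in monocytes. Nfkbid was 7.198, 7.05 and 7.04 in LP neutrophils and 9.47, 9.32 and 9.20 in tumour neutrophils, and 4.98, 5.44 and 4.66 in LP and 5.42, 5.77 and 5.72 in tumour for monocytes, where LP and tumour overlapped. Rel was 6.82, 6.70 and 6.81 in LP and 8.21, 8.56 and 8.28 in tumour for neutrophils, and 6.32, 6.52 and 6.22 in LP and 6.50, 6.96 and 6.63 in tumour for monocytes. The difference of effects was 1.62 (SE 0.31, adjusted p = 0.00302) for Nfkbid and 1.23 (SE 0.21, adjusted p = 0.00124) for Rel.

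Tnfaip3 was 7.91, 8.08 and 7.42 in LP neutrophils and 9.71, 9.51 and 9.45 in tumour neutrophils, with a monocyte effect of 0.34. Tnf rose from 7.82, 8.22 and 7.28 to 9.18, 9.23 and 8.74 in neutrophils and was 6.998, 7.68 and 6.46 in LP and 6.91, 6.67 and 6.52 in tumour for monocytes, so that its effect was 1.28 against -0.34. The differences were 1.41 (SE 0.36, adjusted p = 0.0187) and 1.62 (SE 0.43, adjusted p = 0.0222). Nfkbie and Nfkbiz rose in both cell types, Nfkbie by 1.80 in neutrophils and 0.88 in monocytes and Nfkbiz by 2.02 and 0.84, and differed by 0.92 (SE 0.24, adjusted p = 0.0189) and 1.17 (SE 0.34, adjusted p = 0.0353). Birc3 had the smallest difference, 0.86 (SE 0.26, adjusted p = 0.0442). In contrast, Nfkbia, which encodes the main IkB protein, rose by 1.07 in neutrophils, had an effect of 0.82 in monocytes, and did not differ by the test (adjusted p = 0.779).

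Several of these calls rested on all 12 libraries. The number of higher NF-kB members was 3 without LP neutrophil library V, 4 without LP monocyte library IV and 4 without tumour monocyte library V, 5 with summed reads as library size, 2 with array weights and 1 with quantile normalization. No member was lower under any alternative. Rel and Nfkbid were the steadiest, called in 27 and 26 of 27 alternatives. With summed reads the list median was -0.04, beside -0.38 for all genes.

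The promoters of the NF-kB members that differed were read to show the sequence from which they are transcribed. The kB site, the motif bound by NF-kB, was searched on both strands in the 300 bases around each RefSeq start (250 before and 50 after, GRCm38.p6). It was found for 4 of the 6 higher members with an entry in the promoter table and for 3 of the 10 other members with one. It lay in the promoters of 6.34% of all genes tested that had an entry, in 9.45% of the genes called higher and in 4.51% of those called lower. A match is a stretch of letters and not a shown binding site. A gene was counted if any of its starts held a match. Nfkbid has 3 starts in the promoter table and Tnfaip3 has 2, and the first start with a match is printed. The window of Nfkbid lies inside the annotated gene, which begins at chr7:30421732. The 250 bases before the start are printed 5′ to 3′ on the strand of the gene for the 4 genes, with the kB matches in capitals. Nfkbid lies at chr7:30422156-30422405 (plus strand) with matches beginning 226 and 181 bases before the start, and Nfkbie at chr17:45555450-45555699 (plus strand) with 1 match. Rel lies at chr11:23770970-23771219 (minus strand) with 2 overlapping matches, and Tnfaip3 at chr10:19015411-19015660 (minus strand) with 2 separate ones.
Nfkbid: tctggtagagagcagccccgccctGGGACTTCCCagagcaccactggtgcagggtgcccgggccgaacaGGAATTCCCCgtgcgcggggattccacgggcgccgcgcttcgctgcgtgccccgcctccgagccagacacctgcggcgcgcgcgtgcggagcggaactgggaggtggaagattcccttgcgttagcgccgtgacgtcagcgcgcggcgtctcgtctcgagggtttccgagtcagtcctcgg
Nfkbie: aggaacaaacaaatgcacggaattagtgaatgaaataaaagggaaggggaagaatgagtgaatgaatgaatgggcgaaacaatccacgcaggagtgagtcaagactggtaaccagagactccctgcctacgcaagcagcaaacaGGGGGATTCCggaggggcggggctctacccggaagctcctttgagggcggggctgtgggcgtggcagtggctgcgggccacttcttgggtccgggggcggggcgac
Rel: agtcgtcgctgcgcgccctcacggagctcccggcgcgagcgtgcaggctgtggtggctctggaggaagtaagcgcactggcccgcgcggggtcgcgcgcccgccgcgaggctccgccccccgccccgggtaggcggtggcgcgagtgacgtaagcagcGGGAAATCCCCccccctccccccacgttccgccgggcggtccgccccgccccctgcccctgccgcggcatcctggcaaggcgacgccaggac
Tnfaip3: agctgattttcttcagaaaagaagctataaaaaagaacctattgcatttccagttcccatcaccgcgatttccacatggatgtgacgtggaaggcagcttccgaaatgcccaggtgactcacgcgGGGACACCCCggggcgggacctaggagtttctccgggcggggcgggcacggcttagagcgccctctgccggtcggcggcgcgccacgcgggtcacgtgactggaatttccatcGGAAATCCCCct

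Immediate-early genes behaved alike in number. Of 24 members, 7 had a higher tumour effect in neutrophils and none a lower one (1 lower and 11 higher at an unadjusted p under 0.05, none lower with voom), with a median of 0.61. In neutrophils 15 rose and in monocytes 9 did, beside 13.1% and 4.86% of all genes. Zfp36, tristetraprolin, which speeds the decay of cytokine messages including that of Tnf, was 9.87, 10.43 and 9.67 in LP neutrophils and 12.17, 12.31 and 11.94 in tumour neutrophils. In monocytes it was 9.14, 9.63 and 9.27 in LP and 9.32, 9.31 and 9.92 in tumour, with overlap, and the difference was 1.98 (SE 0.32, adjusted p = 0.00091). Its promoter (chr7:28379229-28379478, minus strand) held 1 serum response element, the motif of serum response factor, shown in capitals because only 1.54% of promoters of genes tested held it, 1 other member of the list (Egr2, not called) among them.
Zfp36: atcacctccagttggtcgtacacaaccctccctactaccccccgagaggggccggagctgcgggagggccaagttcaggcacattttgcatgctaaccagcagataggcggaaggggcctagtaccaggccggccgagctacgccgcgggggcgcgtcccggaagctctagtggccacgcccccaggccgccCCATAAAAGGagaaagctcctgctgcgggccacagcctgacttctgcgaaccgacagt

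Fosb, a subunit of AP-1, was 5.86, 5.34 and 5.79 in LP and 8.15, 8.11 and 7.93 in tumour for neutrophils and 4.65, 4.54 and 4.43 in LP and 5.06, 4.97 and 5.49 in tumour for monocytes, a difference of 1.76 (SE 0.36, adjusted p = 0.00425). Nr4a1, an orphan nuclear receptor induced by antigen and Toll-like receptor signals, rose in both, by 3.81 and 2.23, with a difference of 1.58 (SE 0.48, adjusted p = 0.0427). Klf6, a zinc finger factor, differed by 1.23 (SE 0.31, adjusted p = 0.0169), and Dusp1, a phosphatase of MAP kinases, by 1.02 (SE 0.29, adjusted p = 0.03). Fos and Ier5 differed by 1.00 and 1.18. Other members did not follow: Nr4a3 rose by 1.98 in neutrophils and 3.03 in monocytes, Egr2 had an effect of 0.59 in neutrophils, which did not pass, and rose by 1.44 in monocytes, and neither difference passed. With single libraries left out the number of higher members fell to 3 (without tumour monocyte library II) and to 4 (without LP monocyte library IV, LP monocyte library V, LP neutrophil library III or tumour neutrophil library II). With summed reads 4 were higher and 1 lower, and with quantile normalization 2 were higher. Zfp36 was called in each of the 27 alternatives and Fosb in 26.

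**Figure D4:**
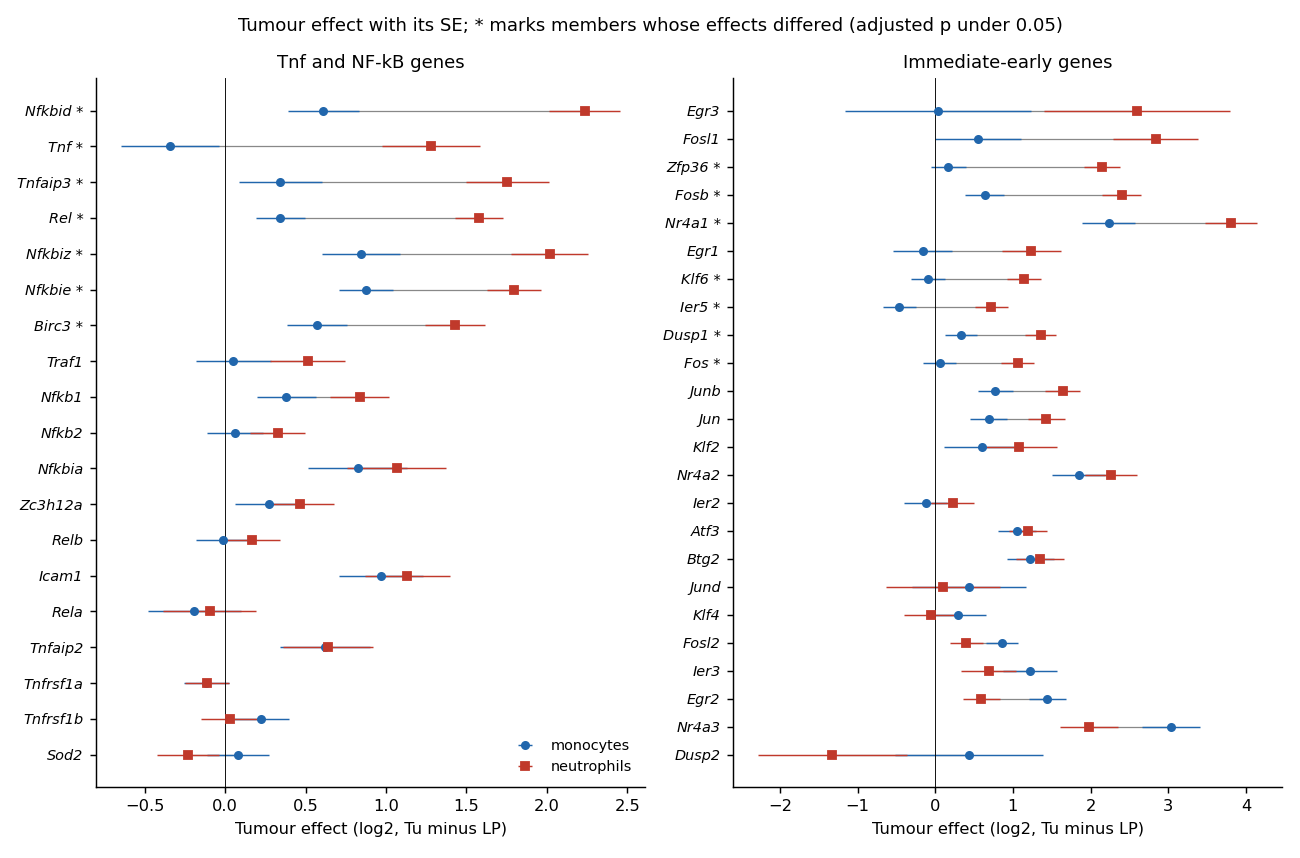
Tumour effect (log2 RPKM, tumour minus LP) in neutrophils (red squares) and monocytes (blue circles) of each tested Tnf and NF-kB gene and immediate-early gene, with its SE as bars. Asterisks mark the 7 members of each list whose effects differed, in all of which the neutrophil point lies to the right.

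Many interferon-stimulated genes fell in both cell types. Of 30 members, 12 fell in neutrophils and 15 in monocytes and none rose, where 19.0% of all genes fell in neutrophils and 4.43% in monocytes. The effects differed for 4, with Ifit1, Ifit3 and Oasl2 higher in neutrophils and Mx2 lower. Ifit1, which binds foreign RNA ends, went from 6.64, 6.61 and 5.98 to 4.88, 4.23 and 4.75 in neutrophils and from 5.35, 6.58 and 4.87 to 1.56, 1.21 and 2.29 in monocytes. No library of LP overlapped one of tumour, and the effects of -1.79 and -3.91 differed by 2.12 (SE 0.52, adjusted p = 0.0136). Ifit3 fell in monocytes, with an effect of -3.07, against -1.06 in neutrophils, which did not pass, a difference of 2.01 (SE 0.59, adjusted p = 0.0369), and 50.8% of its 51-base stretches also occur in another gene. Oasl2 differed by 1.19 (SE 0.37, adjusted p = 0.0479), from -1.11 in monocytes and 0.08 in neutrophils. Mx2, an interferon-induced GTPase gene that is annotated as a polymorphic pseudogene, had 57, 92 and 62 reads in LP neutrophils and none in the 3 tumour neutrophil libraries. Its neutrophil effect, with the floor of 3 reads a library, was a fall of at least 4.97 on the log2 scale, against -2.56 in monocytes. The fitted difference of -6.12 was -2.42 with that floor, and log2(RPKM + 1) gave a difference of 0.83 with the opposite sign (adjusted p = 0.258). Ifit1 was called in 25 of 27 alternatives, Ifit3 in 15 and Oasl2 in 12, and with summed reads 1 member was higher and 1 lower. Ifit1 and Mx2 kept their call with each single library left out, and Ifit3 and Oasl2 did not. Just 1 member was higher without LP monocyte library IV, LP neutrophil library IV or V, tumour monocyte library I or II, or tumour neutrophil library I or V.

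Enzymes of cholesterol and fatty acid synthesis were higher in neutrophils for 4 of 22 members and lower for 1. Hmgcs1, an enzyme of sterol synthesis, rose in neutrophils by 1.52 and had -0.34 in monocytes, a difference of 1.86 (SE 0.48, adjusted p = 0.0194). Fasn, fatty acid synthase, was -1.52, -1.96 and -1.23 in LP and 0.08, 0.56 and 0.42 in tumour for neutrophils, with a difference of 2.09 (SE 0.48, adjusted p = 0.00909). Dhcr7, the last step to cholesterol, rested on 4, 0 and 18 reads in LP neutrophils against 28, 21 and 38 in tumour neutrophils, and its difference of 5.14 was 3.90 with the floor of 3 reads. Mvd, an enzyme of the mevalonate arm, was the exception. It rose in monocytes from 3.58, 3.27 and 3.40 to 4.76, 4.77 and 4.38, overlapped in neutrophils, and differed by -1.34 (SE 0.30, adjusted p = 0.00739). Without the LP monocyte libraries III and V no member of the list was higher and 3 were lower, and the median went from 0.62 to 0.01. Without LP monocyte library III alone 2 were higher and 2 lower.

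Of 22 glycolytic genes, 15 rose in neutrophils and 11 in monocytes (13.1% and 4.86% of all genes), and the effects differed for 4, with 3 higher in neutrophils and 1 lower. With summed reads as library size 2 were higher and 3 lower, and without the LP monocyte libraries III and V 1 was higher and 1 lower. Hk3, a myeloid hexokinase, was 7.32, 7.55 and 6.90 in LP neutrophils and 8.25, 7.87 and 7.89 in tumour neutrophils, and 5.65, 5.78 and 5.39 in LP and 5.44, 4.95 and 5.31 in tumour for monocytes, a difference of 1.12 (SE 0.24, adjusted p = 0.00615). Slc16a3, the lactate exporter MCT4, rose in neutrophils from 9.96, 9.81 and 9.90 to 10.91, 10.91 and 10.94 against 0.19 in monocytes, a difference of 0.84 (SE 0.26, adjusted p = 0.0442), but kept its call with only 2 of the 12 libraries left out in turn. Pfkm, a phosphofructokinase subunit, had 0, 0 and 1 reads in LP neutrophils, and its difference of 5.17 was 2.25 with the floor of 3 reads. Pfkfb3, described above, was the only member that was lower, and its effects were opposite. In the hypoxia-response list 6 of 21 members rose in each cell type, and no member differed by limma or voom (1 at an unadjusted p under 0.05), while with summed reads 2 were lower.

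Antigen presentation was lower in neutrophils for few members. MHC class II presentation genes fell for 9 of 14 members in neutrophils and for 1 in monocytes (19.0% and 4.43% of all genes), and the difference passed for Cd86 and H2-DMb2. With voom 3 members were lower, with summed reads 5, and with quantile normalization or without the LP monocyte libraries III and V none was (adjusted p without these libraries 0.0809 for Cd86 and 0.12 for H2-DMb2). With 1 library left out, 1 member was lower without any LP monocyte or tumour monocyte library, without LP neutrophil library IV or V, or without tumour neutrophil library I, and 3 without tumour neutrophil library V. Cd86, a ligand of Cd28 on T cells, was 5.76, 5.12 and 5.51 in LP neutrophils and 4.21, 4.72 and 4.53 in tumour neutrophils and stayed between 6.92 and 7.12 in the monocyte libraries, a difference of -0.90 (SE 0.21, adjusted p = 0.0108). H2-DMb2, a chain of the peptide-loading factor of MHC class II, was 2.25, 2.43 and 3.42 in LP and -7.59, -3.70 and 1.84 in tumour for neutrophils. Its difference was -6.03 (SE 1.82, adjusted p = 0.0429), the adjusted p was 0.0563 with the pool as a replicate block, the call was kept with 1 of 12 libraries left out in turn, and 25.4% of its 51-base stretches occur in another gene. B and plasma cell markers (summed RPKM 359 to 1302 in LP, 0.663 to 20.1 in tumour) and dendritic cell markers (93.4 to 187 in LP, 2.82 to 21.0 in tumour) were lower with both genes in tumour neutrophils, and their part in this was not tested. No MHC class I gene of 19 differed by limma or voom (2 at an unadjusted p under 0.05).

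**Figure D5:**
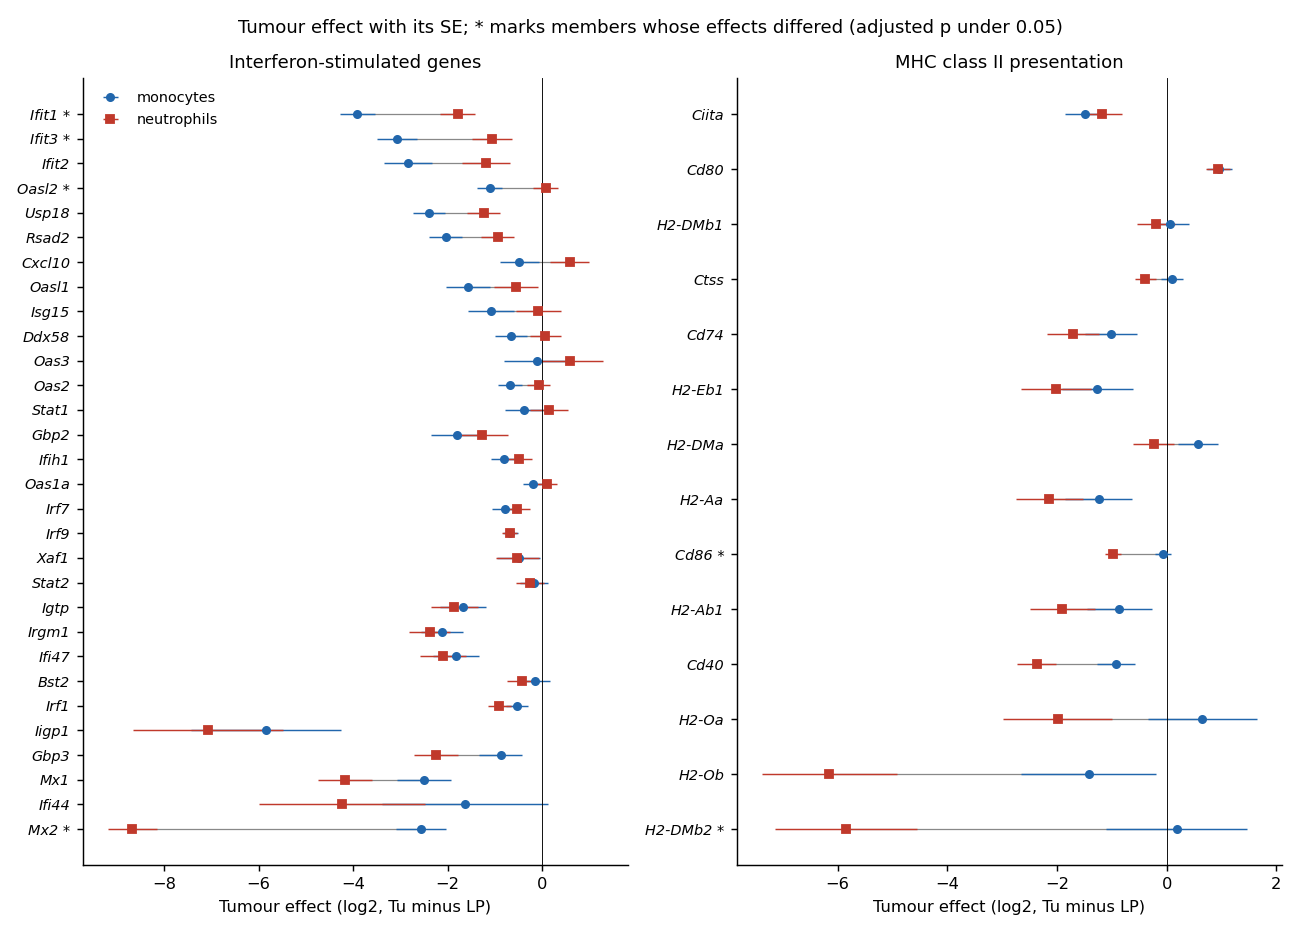
Tumour effect (log2 RPKM, tumour minus LP) in neutrophils (red squares) and monocytes (blue circles) with SE, for 30 interferon-stimulated genes and 14 genes of MHC class II presentation. Asterisks mark members whose effects differed, from Ifit1 with the neutrophil point to the right to Mx2 and H2-DMb2 with it far to the left.

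Of 30 lysosomal genes, 4 had a higher tumour effect in neutrophils and 1 a lower one. Ctsc, cathepsin C, which activates the serine proteases of neutrophil granules, rose in neutrophils from 5.23, 5.47 and 5.21 to 7.57, 7.01 and 6.58 and in monocytes from 7.98, 7.96 and 7.83 to 8.63, 8.33 and 8.56, a difference of 1.17 (SE 0.25, adjusted p = 0.00608). Ctsl, cathepsin L, rose in neutrophils by 0.70 against -0.63 in monocytes, a difference of 1.33 (SE 0.31, adjusted p = 0.0103), and 26.9% of its exon length overlaps an antisense gene. Tfe3, a transcription factor of lysosomal genes, and Grn, progranulin, differed by 1.07 (SE 0.21, adjusted p = 0.00342) and 0.79 (SE 0.24, adjusted p = 0.0463), the latter kept with 3 of 12 libraries left out in turn. Gaa, the lysosomal glucosidase of glycogen, fell in neutrophils from 3.84, 3.71 and 3.78 to 2.10, 2.302 and 2.44 and differed by -1.36 (SE 0.23, adjusted p = 0.00101). Over the 30 members 11 fell and 4 rose in neutrophils, beside 19.0% and 13.1% of all genes. With summed reads as library size 3 members had a higher and 10 a lower effect in neutrophils.

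Receptors and signalling proteins of inflammation gave single genes. C5ar1, the receptor of complement C5a, rose in neutrophils from 11.06, 10.91 and 10.87 to 11.46, 11.74 and 11.56 with -0.26 in monocytes, a difference of 0.90 (SE 0.21, adjusted p = 0.0101). With quantile normalization that difference was 0.013 (adjusted p = 0.98). Myd88, the adaptor of Toll-like and interleukin-1 receptors, differed by 1.05 (SE 0.22, adjusted p = 0.00566), and Cd84, a self-binding receptor of leukocytes, by 1.24 (SE 0.25, adjusted p = 0.00405). Il18, a cytokine released by inflammasomes, fell in neutrophils from 6.27, 6.10 and 5.93 to 4.73, 4.39 and 5.35 and differed by -1.58 (SE 0.39, adjusted p = 0.0152), lost with quantile normalization (adjusted p = 0.057) and without the LP monocyte libraries III and V (adjusted p = 0.128). Tbxas1, thromboxane synthase, rose in neutrophils from 0.07, 0.40 and 1.01 to 2.76, 2.99 and 2.94 and in monocytes from 2.01, 2.15 and 2.03 to 2.79, 3.14 and 3.33, a difference of 1.38 (SE 0.28, adjusted p = 0.00411) that held in each of the 27 alternatives. Fcgr3, an activating Fc receptor, differed by -0.86 (SE 0.27, adjusted p = 0.0491), and Plaur, the urokinase receptor, by 1.36 (SE 0.41, adjusted p = 0.0423). Neither of these 2 calls survived the removal of any 1 of the 12 libraries, with adjusted p up to 0.123 and 0.0922. Slc11a1, a phagosomal metal transporter, differed by -0.95 (SE 0.25, adjusted p = 0.0194), lost without LP monocyte library III or tumour monocyte library I, and Nqo1, a quinone reductase, by 1.87 (SE 0.52, adjusted p = 0.0288) with 6 of 12 kept. Lyz2, lysozyme, rose in neutrophils by 1.68 and differed by 1.27 (SE 0.38, adjusted p = 0.04), kept with 3 of 12. Ccl7, a monocyte chemoattractant, and Ltc4s, leukotriene C4 synthase, rested on few reads (in tumour neutrophils 0, 8 and 0 and 1, 0 and 0), and their floor differences were -2.80 and -1.65.

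Of 38 S and G2/M genes, 4 had a lower and 1 a higher tumour effect in neutrophils, and of 22 genes of the unfolded protein response 2 were lower and none higher (10 lower with summed reads). Of 14 heat shock proteins 1, Hspb1, was higher. Cdt1, which licenses replication origins, fell from 4.44, 3.67 and 3.44 to 1.23, -0.06 and 0.93 in neutrophils and from 3.41, 3.67 and 3.25 to 2.32, 2.51 and 2.24 in monocytes, a difference of -2.06 (SE 0.39, adjusted p = 0.00266). Mki67, the Ki-67 antigen of cycling cells, was 2.16, 2.43 and 2.20 in LP and 0.71, 1.26 and 1.31 in tumour for neutrophils and 0.46, 0.68 and 0.66 in LP and 1.05, 1.35 and 1.09 in tumour for monocytes, a difference of -1.74 (SE 0.34, adjusted p = 0.00293). Bub1b and Kif23, of the spindle checkpoint and of cytokinesis, differed by -1.85 (SE 0.54, adjusted p = 0.0352) and -1.86 (SE 0.57, adjusted p = 0.045), kept with 7 and 1 of 12 libraries left out in turn. Plk1, a mitotic kinase, was higher, by 5.79 (SE 1.76, adjusted p = 0.0431), from 0, 20 and 8 reads in LP neutrophils and 12, 11 and 26 in tumour neutrophils, and by 4.56 with the floor of 3 reads. It was called in 10 of 25 alternatives and with 5 of 12 libraries left out in turn, with an adjusted p of 0.0665 with the pool as a replicate block and up to 0.193 over the alternatives. Eif2ak3, the endoplasmic reticulum stress kinase PERK, fell in neutrophils from 2.66, 2.62 and 2.58 to -1.90, -0.07 and -0.21 and was -0.38, 0.77 and 1.12 in LP and 0.94, 0.55 and 0.33 in tumour for monocytes, a difference of -3.45 (SE 0.62, adjusted p = 0.00174). Pdia6, a protein disulphide isomerase, fell in both and differed by -1.08 (SE 0.17, adjusted p = 0.00051). Of the Bcl2 family, the BH3 proteins Bid and Bmf were lower, with differences of -1.68 (SE 0.44, adjusted p = 0.0198) and -2.24 (SE 0.60, adjusted p = 0.0232). Bbc3, the p53 target PUMA, was higher by 1.98 (SE 0.58, adjusted p = 0.0347), with neither effect past the test alone and the call kept with 3 of 12 libraries left out in turn. Bid lost its call without LP monocyte library IV and Bmf without LP monocyte library IV or tumour neutrophil library I. Ndufa5, a subunit of respiratory complex I, was higher by 2.68 with the floor of 3 reads, as LP neutrophils held 1, 0 and 0 reads.

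Genes often used to describe tumour neutrophils and monocytes did not differ by the test, and the SE gives the size that could have been missed. Il1b rose in both, from 13.31, 13.25 and 13.49 to 14.98, 15.12 and 14.61 in neutrophils and from 11.51, 12.27 and 11.99 to 13.29, 13.05 and 12.79 in monocytes, with a difference of 0.43 (SE 0.40, adjusted p = 0.552). Mmp9 rose by 1.58 and 1.78, and the difference of -0.20 (SE 0.74, adjusted p = 0.904) did not pass. Arg1 rose in neutrophils from 4.12, 3.82 and 5.26 to 6.97, 7.21 and 6.48 and was 8.91, 9.71 and 8.80 in LP and 10.46, 10.43 and 10.73 in tumour for monocytes, with a difference of 1.09 (SE 0.81, adjusted p = 0.444). The alarmins S100a8 and S100a9 had differences of -0.39 (SE 1.18) and 1.19 (SE 1.37). For Ly6g, Csf3r, Ccr2 and Ly6c2 they were 0.39 (SE 1.74), 0.17 (SE 0.23), 0.59 (SE 0.51) and 0.88 (SE 1.21). For Cd274, Vegfa, Nos2 and Spp1 they were -0.33 (SE 0.33), -0.05 (SE 1.04), 0.86 (SE 1.23) and 0.05 (SE 0.69). No member of the CXC chemokine list (11 tested) or the NADPH oxidase list (9) differed by limma or voom, with 2 and 2 at an unadjusted p under 0.05. Cytosolic ribosomal proteins had a median of -0.46 over 78 members, with none called by limma or voom and 13 lower at an unadjusted p under 0.05. With summed reads the median was -0.77 and 9 members were lower.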

How the data were processed

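RNA-seq of sorted cells (a modified SMARTSeq v2 protocol, unstranded) was deposited by the authors as log2 RPKM for 17301 genes in 24 libraries. The submitters' processing notes name STAR 2.3, featureCounts 1.5 and the GRCm38/mm10 build, and the authors removed genes with few reads. Whole reads were recovered from the deposited log2 values for 100% of values (within 0.001 reads) and served for depth, the floor of 3 reads and voom. The series was fitted with limma 3.58.1 (R 4.3.3) on the log2 RPKM of 8 groups with a variance trend, for genes whose mean RPKM reached 1 in any group, with Benjamini-Hochberg adjustment at 0.05. The contrast was (Tu_Ne - LP_Ne) - (Tu_Mo - LP_Mo), without a block. The members and gene lists were chosen with earlier results of these data known.

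Neutrophil and monocyte libraries of a tissue with the same donor numeral were taken to share a pool of mice and were paired by it. Over 6 pairs the deviations correlated at -0.02 to 0.11. Named genes were those eligible (adjusted p under 0.05, tumour within-pool differences all above or all below those of LP, a group mean RPKM of at least 10, no predicted gene) with the 8 largest differences in each direction, the 8 opposite genes with the largest smaller effect in each direction, up to 4 called members a list, and genes fixed whatever their test. Egr2, Fos, Grn, Ier5, Mki67, Nfkbia, Nfkbie, Nfkbiz and Nr4a3 were added after their values were seen, to complete a list's count. Alternatives changed the pseudocount, filter, normalization, libraries, weights, trend, block and tool. The statistic was tested on simulated data. Some genes are not reported here. Promoter sequences are from RefSeq (GRCm38.p6).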

Additional observations from a re-analysis of the deposited data

Results flagged for a closer look

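The tumour effect differed between the cell types, by the interaction test of limma, for 465 genes that were higher and 708 that were lower in neutrophils, and 40 of them had opposite effects. The values of the named genes follow as the difference of effects on the log2 scale, each with an adjusted p under 0.05, and no explanation was weighed.

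Among the genes higher in neutrophils, those that differed by more than 4 were Lypd3 (16.19), Krt17 (11.26), Pparg (8.01), Plk1 (5.79), Pfkm (5.17), Ndufa5 (5.14), Dhcr7 (5.14), Hspb1 (4.12) and Jup (4.02). Those that differed by 2 to 4 were Gpnmb (3.92), Anxa1 (2.97), Mov10 (2.90), Slc35d2 (2.84), Acod1 (2.44), Ifit1 (2.12), Fasn (2.09) and Ifit3 (2.01). Those that differed by 1.2 to 2 were Bbc3 (1.98), Zfp36 (1.98), Nqo1 (1.87), Hmgcs1 (1.86), Fosb (1.76), Nfkbid (1.62), Tnf (1.62), Nr4a1 (1.58), Tnfaip3 (1.41), Med13l (1.40), Tbxas1 (1.39), Plaur (1.36), Ctsl (1.33), Sar1a (1.28), Lyz2 (1.27), Cd84 (1.24), Klf6 (1.23), Rel (1.23) and Clec4a2 (1.23). Those that differed by less than 1.2 were Supt20 (1.19), Oasl2 (1.19), Ctsc (1.17), Hk3 (1.12), Tfe3 (1.07), Myd88 (1.05), Dusp1 (1.02), C5ar1 (0.90), Birc3 (0.86) and Slc16a3 (0.84).

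Among the genes lower in neutrophils, those that differed by more than 4 were Car13 (-6.23), Mx2 (-6.12), H2-DMb2 (-6.03), Tlr9 (-5.84), Ccl7 (-5.26) and Ltc4s (-5.07). Those that differed by 2 to 4 were Rcan1 (-3.77), Mmd (-3.51), Eif2ak3 (-3.45), Mgat2 (-3.42), Rcl1 (-3.42), Kif1a (-3.39), Thbd (-3.11), Pla2g15 (-2.72), Cd83 (-2.52), Ptger2 (-2.40), Phactr2 (-2.39), Pfkfb3 (-2.27), Bmf (-2.24), Nudt18 (-2.24) and Cdt1 (-2.06). Those that differed by 1.2 to 2 were Kif23 (-1.86), Cxcr4 (-1.86), Bub1b (-1.85), Bid (-1.68), Il18 (-1.58), Gaa (-1.36) and Mvd (-1.34). Those that differed by less than 1.2 were Pdia6 (-1.08), Slc11a1 (-0.95), Sdhd (-0.95), Cd86 (-0.90) and Fcgr3 (-0.86).

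Lypd3, Krt17, Hspb1 and Jup were high in the LP monocyte libraries III and V together with keratinocyte transcripts, and Lypd3, Krt17, Car13, Tlr9, Mx2, Pfkm, Ltc4s, Ccl7, Pparg, Ndufa5, Dhcr7, Plk1, H2-DMb2 and Rcl1 had libraries at or under 3 reads. The part of either in these differences was not tested.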

How the results depend on the processing

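The direction of the named differences held with 2 exceptions. Of 2124 values of the 79 named genes that differed under the 27 alternatives, 1787 stayed on the same side of the threshold in the same direction, 335 kept the direction and lost the call, and 2 reversed, namely Tlr9 (0.0649) and Mx2 (0.83) with log2(RPKM + 1). Counted by gene, 27 of the 79 kept their call in every alternative, and 231 of all 1173 called genes did. The counts moved by over 1.5 times under few settings. With quantile normalization 532 genes differed (209 higher, 323 lower), with summed reads as library size 1801 (270 higher, 1531 lower), and without the LP monocyte libraries III and V 521 (185 higher, 336 lower), with 14 opposite genes and 415 called in monocytes. With array weights 298 were higher, 2625 were called in neutrophils and 1869 in monocytes, and with voom 418 were lower. The last 2 library choices (summed reads and the removal of 2 libraries) were added after seeing the data. With 1 library left out, 865 to 1284 genes differed (335 to 482 higher, 530 to 888 lower), with 22 to 44 opposite, 3537 to 4121 called in neutrophils and 768 to 1294 in monocytes, the last lowest without tumour monocyte library I.

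The pool entered as a replicate block, because neutrophil and monocyte libraries of 1 number were taken to come from the same mice. With the fixed replicate block 1306 genes differed (508 higher, 798 lower), of which 1054 were among the 1173, and with the random replicate block 1275. Among the named genes 3 lost their call with the fixed replicate block (Plk1, Ltc4s and H2-DMb2), and none with the random one. Pools lie within a tissue, so the effect of 1 cell type and the count of opposite genes could not be fitted with the fixed replicate block. Depth limits the genes near 0 reads, for which a fold is a bound. The p-values measure the spread between the 3 pools of a group, estimated over the 8 groups of the series.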
